A study of Mus musculus with 4 samples.

Results

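Oxygen sensing by hypoxia-inducible factors (HIFs) was examined through 10 genes in mouse embryonic stem (mES) cells depleted of the zinc finger gene Zfp322a by RNAi. The genes are the HIF subunits Hif1a, Epas1 and Arnt, the oxygen sensors and turnover genes Egln1, Egln2, Egln3, Hif1an and Vhl, and the HIF targets Vegfa and Ankrd37. They were chosen from the same 4 arrays with the comparison already known. Their own levels, changes and calls (defined with the levels below) are therefore a description, and no adjusted p is given for them. The members are all 24 probe sets, of 45037 on the array table, that carry one of these names as their single gene symbol, and the 10 genes are among 18193 that could be named. RNA came from E14 cells, a mES line widely used in mouse genetics, in medium with serum and LIF, the cytokine that holds mES cells undifferentiated. The tested cells (Zfp322a RNAi, 2 arrays) carried a pSuper.puro plasmid expressing an shRNA against Zfp322a. The others (control RNAi, 2 arrays) carried a pSuper.puro control plasmid. The study names the empty plasmid as the control of its qPCR, while its array methods describe a control shRNA. Both groups were transfected and held under puromycin. The labels and the study's transfection methods put this selection at 3 days, while its array methods give a longer one. The cells were transfected pools and no clones, the sources used here do not say which of the study's shRNAs they carried, and nothing in the labels says that replicates came from separate cultures. P-values of the other genes therefore measure the spread between these samples, which may be technical.

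HIFs are dimers of an oxygen-regulated alpha subunit, encoded by Hif1a or Epas1, and the constant partner encoded by Arnt. When oxygen is present, the prolyl hydroxylases encoded by Egln1, Egln2 and Egln3 (also called PHD2, PHD1 and PHD3) hydroxylate the alpha subunits, which are then bound by the Vhl protein, marked with ubiquitin and degraded. The asparaginyl hydroxylase encoded by Hif1an lowers the activity of the alpha subunits that remain. When oxygen is scarce, the alpha subunits persist and switch on genes for glycolysis, vessel growth and survival, with Egln1 and Egln3 among the induced genes. The regulation of the alpha subunits acts mostly on the protein, which arrays do not measure.

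HIF dimers bind DNA at a short core, ACGTG or GCGTG. Promoters of the members were taken from RefSeq (build GRCm38.p6), 250 bases before to 50 bases after each annotated start, and 9 of the 10 genes had one (all but Epas1). The 250 bases before the start are shown for the 3 genes whose every probe set was called lower in Zfp322a RNAi cells by the rule given with the levels, 5′ to 3′ on the strand of the gene, with matches to either core on either strand in capitals. The positions are chr8:124949255-124949504, minus strand, for Egln1, chr12:54203875-54204124, minus strand, for Egln3, and chr8:45999851-46000100, minus strand, for Ankrd37.
Egln1: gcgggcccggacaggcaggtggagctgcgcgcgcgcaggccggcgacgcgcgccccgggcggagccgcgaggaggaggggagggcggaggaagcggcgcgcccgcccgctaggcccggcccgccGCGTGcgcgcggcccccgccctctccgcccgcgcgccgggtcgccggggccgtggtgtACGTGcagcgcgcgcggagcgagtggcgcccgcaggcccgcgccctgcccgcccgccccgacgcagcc
Egln3: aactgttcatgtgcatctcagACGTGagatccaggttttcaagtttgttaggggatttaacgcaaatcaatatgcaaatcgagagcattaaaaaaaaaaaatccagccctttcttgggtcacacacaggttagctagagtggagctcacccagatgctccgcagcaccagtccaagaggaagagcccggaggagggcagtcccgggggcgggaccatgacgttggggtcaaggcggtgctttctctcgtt
Ankrd37: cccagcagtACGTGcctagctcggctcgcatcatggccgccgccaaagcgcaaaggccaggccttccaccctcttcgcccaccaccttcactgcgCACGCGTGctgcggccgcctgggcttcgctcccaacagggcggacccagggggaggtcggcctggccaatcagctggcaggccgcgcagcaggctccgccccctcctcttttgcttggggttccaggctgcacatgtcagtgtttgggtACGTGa

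The Egln1 window held GCGTG starting at -126 and ACGTG at -68 from the start, and the Egln3 window held ACGTG at -229. The Ankrd37 window held 4 matches, at -241, -155, -152 and -6, of which the pair at -155 and -152 overlaps on opposite strands. The Ankrd37 start used lies inside the annotated span of that gene, which reaches chr8:46000414. The whole Hif1a window, chr12:73907617-73907916 on the plus strand, lies inside its gene, which begins at chr12:73901324. The starts used for Arnt and the first starts of Egln2 and Vegfa also lie inside the annotated spans. Of the 9 members with a window, 7 (77.8%) held at least 1 match, against 46.7% of the 27025 genes in the RefSeq table. Counted by window, 8 of 11 (72.7%) held a match, against 43.8% of all windows. The members were chosen as HIF pathway genes and include known HIF targets, so these shares are no independent result. Hif1an and Vhl held 0 matches. The window with the most, 6 matches of which a pair overlaps on opposite strands, was the second start of Egln2, a gene whose array level did not pass the test, and Hif1a held 3, also with an overlapping pair. A match is a string of letters and no measured binding site.

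**Figure D1:**
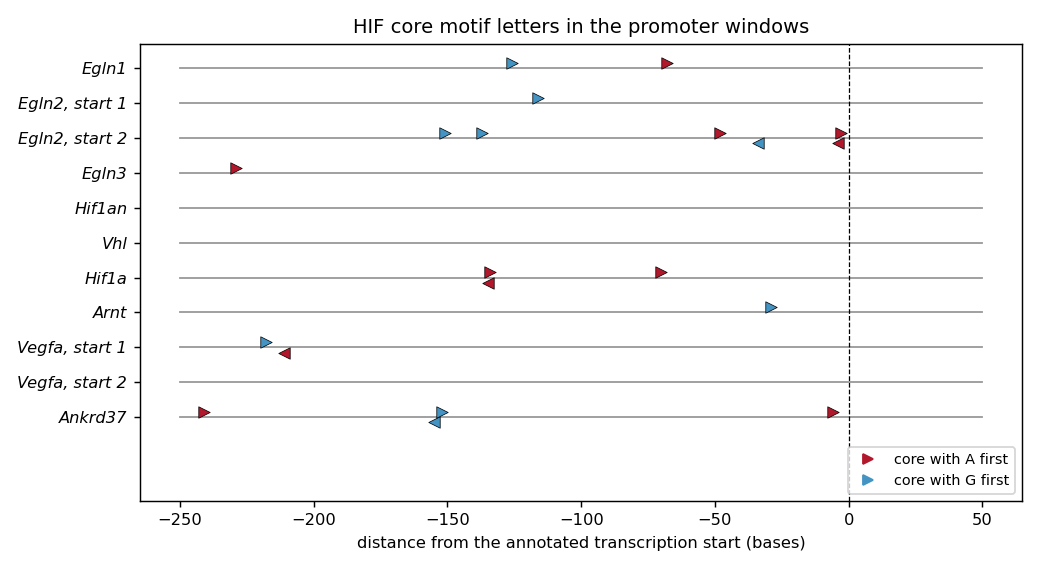
Matches to the HIF core in the promoter windows of the 9 genes that had one (Egln2 and Vegfa have 2 annotated starts each), plotted by distance from the annotated start in bases. Triangles pointing right are matches on the strand of the gene and triangles pointing left are on the opposite strand. Red marks the core that begins with A and blue the core that begins with G. Egln2 start 2 holds the most, 6, while Hif1an, Vhl and Vegfa start 2 hold 0.

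Levels are RMA values on the log2 scale, 1 value per probe set and array, and changes are Zfp322a RNAi minus control RNAi on that scale with the standard error (SE) of the limma fit. Probe sets differ in brightness for technical reasons, so levels are compared between groups and never between probe sets or genes. A probe set is called higher or lower where its limma p, adjusted over all 45037 probe sets by the Benjamini-Hochberg method, is under 0.05. The targeted gene was lower on both Zfp322a RNAi arrays. Its probe set 1452374_at read 7.08 and 6.89 in Zfp322a RNAi cells, against 8.82 and 8.89 in control RNAi cells, which leaves 27.4% of the control level (limma adjusted p = 9.35e-04). Its probe set 1439035_at read 7.53 and 7.13 in Zfp322a RNAi cells, against 8.75 and 8.84 in control RNAi cells, which leaves 36.2% (limma adjusted p = 0.00220).

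Zfp322a RNAi cells read lower for both probe sets of Egln1 and of Egln3, and higher for the brighter one of Epas1. No probe set of Egln2, Hif1an, Vhl, Arnt or Vegfa was called. The genes were chosen with these values known, so their calls restate that choice and test nothing. Of the 24 member probe sets, 2 were called higher, 6 lower and 16 neither. Over all probe sets of the table, 10.6% were called higher and 9.47% lower. The arrays of both groups did not overlap for 13 member probe sets, 3 above and 10 below, and for 57.5% of all probe sets. A change past 1.5-fold together with the call was seen for 5 member probe sets and for 7.21% of all. With each gene represented by its brightest probe set (that with the highest mean level), 2 of the 10 genes were called higher and 3 lower, against 12.2% and 11.5% of all named genes. These shares of the members follow from how the genes were chosen and are not a test. By role, the sensors and turnover genes had 0 higher and 4 lower of 10 probe sets (1 and 5 at an unadjusted limma p under 0.05) with a median change of -0.20, the HIF subunits had 2 higher and 1 lower of 11 with a median of 0.04, and the targets had 0 higher and 1 lower of 3 (0 and 1 unadjusted) with a median of -0.13. The median change of all probe sets was -0.03.

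**Figure D2:**
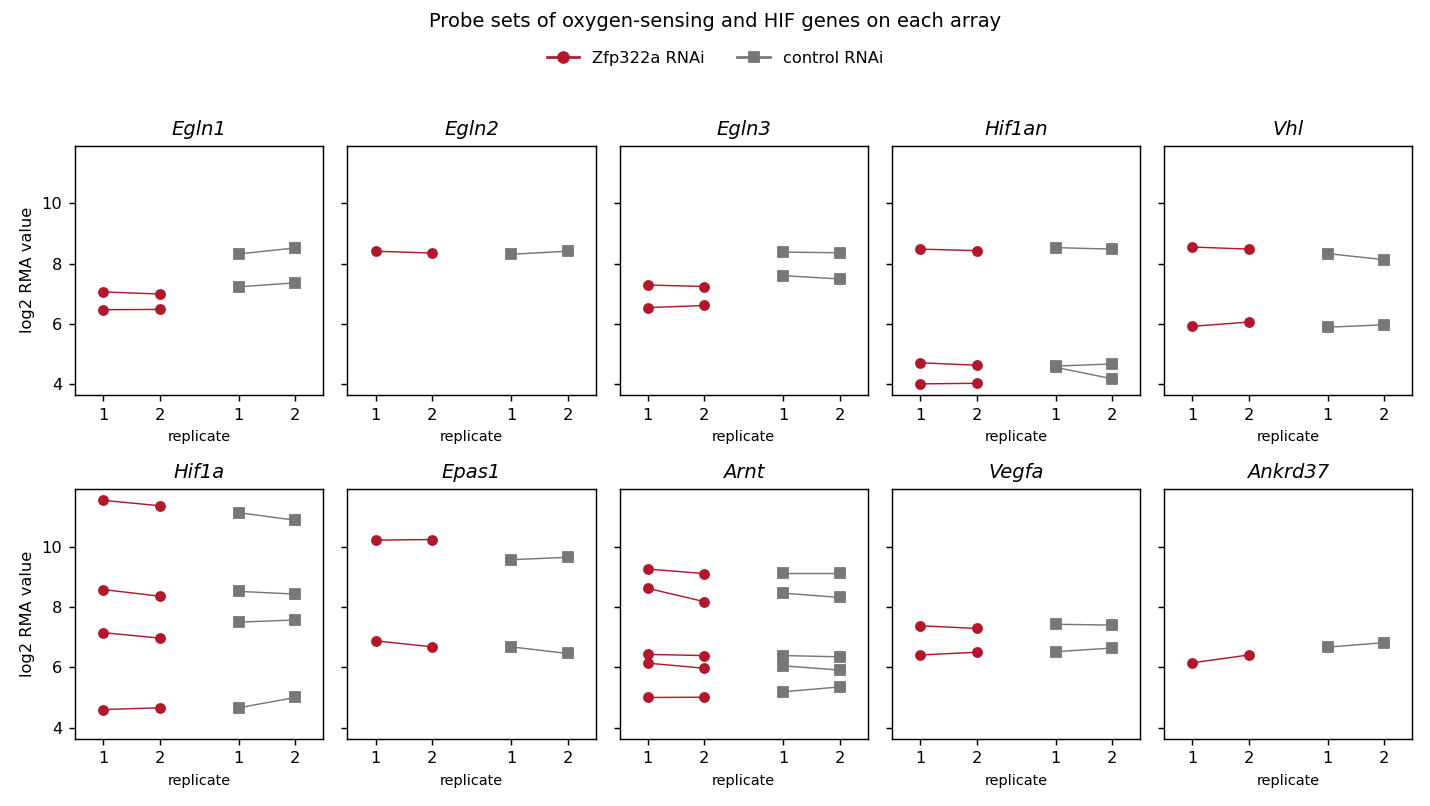
Log2 RMA values (vertical axis) of all 24 probe sets of the 10 genes on each array, with the 2 Zfp322a RNAi arrays in red at the left of each panel and the 2 control RNAi arrays in grey at the right. Each line joins the arrays of 1 group for 1 probe set. Both probe sets of Egln1 and of Egln3 lie lower on the Zfp322a RNAi arrays, the brighter one of Epas1 lies higher, and Egln2 reads between 8.31 and 8.41 on all 4 arrays.

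Egln1 encodes PHD2, the main hydroxylase of HIF-1 alpha in most cells with normal oxygen supply. Its probe set 1423785_at read 7.06 and 6.99 in Zfp322a RNAi cells, against 8.32 and 8.52 in control RNAi cells. The change was -1.40 ± 0.10 (SE, n = 2 each), so that 38.0% of the control level was left. Both Zfp322a RNAi arrays lay more than a full log2 unit below both control arrays, and the replicates of a group lay close together. The other probe set, 1451110_at, read 6.47 and 6.48 in Zfp322a RNAi cells, against 7.23 and 7.36 in control RNAi cells. Its change was smaller, -0.82 ± 0.08, and in the same direction, again with no overlap between the groups. Both probe sets were called lower.

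Egln3 encodes PHD3, the hydroxylase with the strongest induction by hypoxia in many cell types. Its probe set 1418649_at read 7.29 and 7.24 in Zfp322a RNAi cells, against 8.38 and 8.36 in control RNAi cells, a change of -1.11 ± 0.08 that left 46.5% of the control level. Its other probe set, 1418648_at, read 6.54 and 6.61 in Zfp322a RNAi cells, against 7.60 and 7.49 in control RNAi cells, a change of -0.97 ± 0.08. The 2 probe sets of Egln3 gave nearly the same change, and the groups did not overlap in either. Both were called lower. Among the 9010 named genes with at least 2 probe sets, 2.91% had every probe set called lower, and Egln1 and Egln3 are 2 of them. Both genes were chosen with this pattern known, so the share is a description and no test of them.

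Egln2, which encodes PHD1, has a single probe set, 1416533_at. It read 8.41 and 8.35 in Zfp322a RNAi cells, against 8.31 and 8.41 in control RNAi cells, so the groups overlapped. The change was 0.02 ± 0.08, with a 95% interval of -0.18 to 0.22, which is narrow beside the changes of the other members of its family. Whether the change of Egln2 differs from those of Egln1 and Egln3 was not tested, because the genes were chosen for this pattern.

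Hif1an, the asparaginyl hydroxylase also called FIH, had 3 probe sets and none was called. The brightest, 1428576_at, read 8.48 and 8.43 in Zfp322a RNAi cells, against 8.53 and 8.48 in control RNAi cells, with a change of -0.05 ± 0.08. The groups touched at 8.48. The others, 1452845_at and 1447817_at, changed by 0.04 ± 0.08 and -0.35 ± 0.13, at dim levels between 4.01 and 4.71. The second of these did not overlap between the groups, and its control arrays stood apart at 4.56 and 4.18.

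Vhl, the substrate receptor of the ubiquitin ligase that removes hydroxylated alpha subunits, read 8.55 and 8.48 in Zfp322a RNAi cells, against 8.33 and 8.13 in control RNAi cells, by its brighter probe set 1434708_at. The change was 0.29 ± 0.10 and was not called, although the groups did not overlap. It was called under 2 of the alternative settings, a variance trend and leaving out the dim probe sets, which is given as a description. The dimmer probe set 1421071_at read 5.92 and 6.06 in Zfp322a RNAi cells, against 5.89 and 5.97 in control RNAi cells. These values overlapped, with a change of 0.06 ± 0.09.

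**Figure D3:**
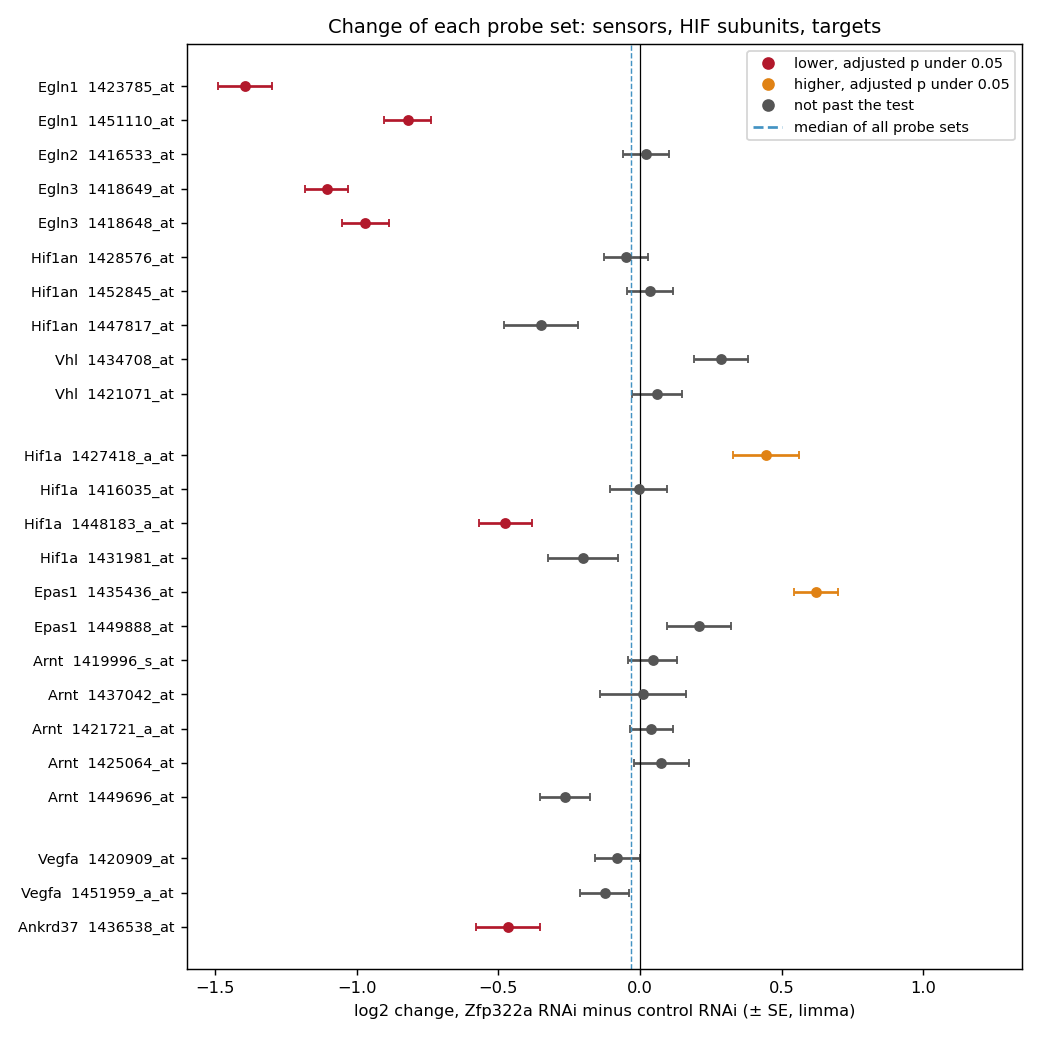
Log2 change, Zfp322a RNAi minus control RNAi, of each member probe set, grouped as sensors and turnover genes, HIF subunits and targets from top to bottom, with bars of ± 1 SE from the limma fit (n = 2 arrays each). Red points were called lower, orange points higher and grey points neither, and the dashed line is the median of all probe sets, -0.03. The 4 points furthest to the left are the probe sets of Egln1 and Egln3, from -1.40 to -0.82.

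Epas1 encodes HIF-2 alpha, the alpha subunit best known from vessels, kidney and lung. Its brighter probe set 1435436_at read 10.22 and 10.24 in Zfp322a RNAi cells, against 9.57 and 9.65 in control RNAi cells. The change was 0.62 ± 0.08, a level 1.54 times that of the control cells, and it was called higher. The other, 1449888_at, read 6.88 and 6.68 in Zfp322a RNAi cells, against 6.68 and 6.46 in control RNAi cells. Its change of 0.21 ± 0.11 was in the same direction, but the groups met at 6.68 and it was not called.

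Hif1a encodes HIF-1 alpha, and its 4 probe sets did not share a direction. The brightest, 1427418_a_at, read 11.54 and 11.36 in Zfp322a RNAi cells, against 11.13 and 10.88 in control RNAi cells, and was called higher with a change of 0.45 ± 0.12. By contrast, 1448183_a_at read 7.15 and 6.97 in Zfp322a RNAi cells, against 7.50 and 7.57 in control RNAi cells, and was called lower with a change of -0.48 ± 0.09. The groups did not overlap in either of these, so the array gives opposite directions for one gene. The remaining probe sets were not called. The second brightest, 1416035_at, read 8.58 and 8.36 in Zfp322a RNAi cells, against 8.52 and 8.43 in control RNAi cells, with a change close to 0 (95% interval -0.25 to 0.24). The dimmest, 1431981_at, changed by -0.20 ± 0.12 and its groups met at 4.66. Averaged over its 4 probe sets, Hif1a changed by -0.06 ± 0.07. No direction can therefore be given for total Hif1a RNA. Calls in both directions were found in 2.19% of the 9010 genes with at least 2 probe sets. Which transcripts each probe set detects was not analysed here.

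Arnt, the shared partner of both alpha subunits, was not called by any of its 5 probe sets. The brightest, 1419996_s_at, read 9.26 and 9.11 in Zfp322a RNAi cells, against 9.14 and 9.14 in control RNAi cells, with a change of 0.05 ± 0.09. The next 3 had changes between 0.01 and 0.08, with groups that overlapped or touched. The dimmest, 1449696_at, read 5.00 and 5.01 in Zfp322a RNAi cells, against 5.19 and 5.35 in control RNAi cells, a change of -0.27 ± 0.09 without overlap.

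Vegfa, the growth factor that drives vessel sprouting and a textbook HIF target, was not called. Its probe set 1420909_at read 7.38 and 7.29 in Zfp322a RNAi cells, against 7.43 and 7.40 in control RNAi cells, and 1451959_a_at read 6.41 and 6.50 in Zfp322a RNAi cells, against 6.52 and 6.64 in control RNAi cells. Both lay slightly below the control arrays without overlap, by 0.02 between the nearest arrays. The changes were -0.08 ± 0.08 and -0.13 ± 0.09, with 95% intervals that end at -0.27 and -0.33 on the low side. Ankrd37, an ankyrin repeat gene induced by HIF-1, read 6.15 and 6.41 in Zfp322a RNAi cells, against 6.67 and 6.82 in control RNAi cells by its single probe set 1436538_at. It was called lower, with a change of -0.47 ± 0.11 that left 72.4% of the control level. Its Zfp322a RNAi arrays differed more from each other than those of Egln1 or Egln3 did.

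**Figure D4:**
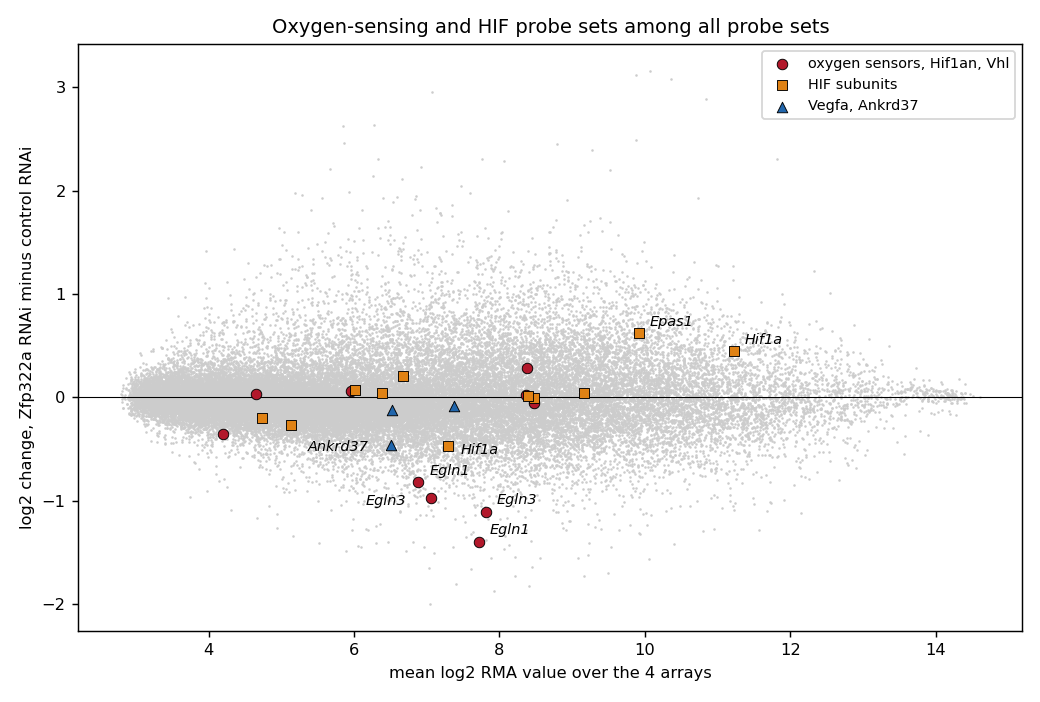
Log2 change, Zfp322a RNAi minus control RNAi, against the mean log2 RMA value over the 4 arrays, for all 45037 probe sets (grey) with the 24 member probe sets drawn by role. Named points are the 8 that were called. Egln1 and Egln3 lie low in the cloud, near but not at its edge, which reaches -2.0, while the other members lie within its dense part.

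The calls rest on 2 arrays per group. With any 1 of the 4 arrays left out (Zfp322a RNAi replicate 1 or 2, control RNAi replicate 1 or 2), limma called 0 of the 24 member probe sets and 0 of all probe sets (6 to 10 members at an unadjusted p under 0.05), while the changes of Egln1 1423785_at stayed between -1.50 and -1.30 and those of Egln3 1418649_at between -1.13 and -1.08. By an exact permutation test, 2 arrays against 2 cannot give a p below 0.333.

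Cell identity was checked by marker lists, given as the log2 of the summed unlogged levels on each array. The ES cell markers Pou5f1, Nanog, Sox2, Zfp42, Esrrb and Utf1 summed to 14.86 and 14.84 in Zfp322a RNAi cells, against 14.93 and 14.85 in control RNAi cells. Of these, 2 of 6 were called lower (Utf1 and Esrrb), and the brightest probe sets dominate the sum. The study reports Pou5f1, Nanog, Sox2 and Zfp42 reduced by qPCR, and their proteins reduced too, whereas these arrays called none of them. The primitive endoderm markers summed to 9.42 and 9.46 in Zfp322a RNAi cells, against 8.72 and 8.73 in control RNAi cells, with 5 of 7 called higher. Gata6 had the largest change, 1.42. Of the 2 not called, Dab2 changed by 0.30 and Gata4 by -0.13, the latter with overlapping groups. Sox7, called higher, read between 4.96 and 5.93, under the median of every array. Foxa2 (5.67 and 5.56) and Sox17 (5.86 and 5.93), also called higher, read under the median on both control arrays. Of 7 fibroblast markers 1 was called lower (Thy1), and the other 6 read between 3.75 and 5.93, under the median of every array (6.07 to 6.11). Of the 5 measured endothelial and blood markers limma called 0 (1 at an unadjusted p under 0.05). The primitive endoderm markers moved in the same comparison as Egln1, Egln3 and Epas1, and their part in these changes was not tested. In RNA from whole cultures, fewer cells of a type and less RNA per cell cannot be told apart.

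The members were then set beside other genes of the pathway, each gene again by its brightest probe set. The other genes that control oxygen sensing showed changes in both directions, with 3 of 16 measured genes higher and 2 lower, beside 12.2% and 11.5% of all named genes (median change 0.04). Siah1a rose by 0.60 ± 0.08 (limma adjusted p = 0.00553) and Siah2 by 0.48 ± 0.08 (limma adjusted p = 0.00882). Both encode ubiquitin ligases, and the Siah proteins are known to target PHD proteins for degradation. Usp33, which encodes a deubiquitinase first found as a partner of VHL in human cells, rose by 0.76 ± 0.14 (limma adjusted p = 0.0153). Hif3a, the third alpha subunit, fell by 0.32 ± 0.08 (limma adjusted p = 0.0385), and Commd1, whose human protein hinders HIF-1 dimers from forming, fell by 0.35 ± 0.08 (limma adjusted p = 0.0313). The ligase subunits Elob, Eloc, Cul2 and Rbx1, which act with Vhl, were not called, with changes between -0.12 and 0.03.

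HIF target genes outside glycolysis split, with 6 of 36 measured genes higher and 5 lower, beside 12.2% and 11.5% of all named genes, and a median change of -0.01. Hmox1, the stress-induced haem oxygenase, which NRF2 also induces, read 10.05 and 9.99 in Zfp322a RNAi cells, against 7.64 and 7.50 in control RNAi cells (change 2.45 ± 0.09, limma adjusted p = 4.71e-04). Bnip3, which directs mitochondria to autophagy in hypoxia, moved the opposite way and read 9.30 and 9.24 in Zfp322a RNAi cells, against 10.91 and 10.76 in control RNAi cells (change -1.57 ± 0.09, limma adjusted p = 0.00105). Kdm3a, a histone H3K9 demethylase, rose by 0.97 ± 0.08 (limma adjusted p = 0.00172). Vldlr, a lipoprotein receptor, rose by 0.88 ± 0.07 (limma adjusted p = 0.00177), and Ddit4, an inhibitor of mTORC1, rose by 0.70 ± 0.08 (limma adjusted p = 0.00299). Plod1, a collagen lysyl hydroxylase, fell by 0.51 ± 0.08 (limma adjusted p = 0.0104). Classical targets such as Car9, Ndrg1 and Adm were not called, with changes of -0.25 ± 0.09, -0.02 ± 0.08 and -0.24 ± 0.14. Car9 was dim, between 5.30 and 5.68 and under the median of every array, and its groups did not overlap. The targets did not share a direction, and the members' target genes Vegfa and Ankrd37 lay within the range of this list, -1.57 to 2.45.

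Genes for glucose uptake and glycolysis that HIF-1 controls were mostly lower. Of 18 measured genes 14 were called lower and 0 higher (also 14 and 0 at an unadjusted limma p under 0.05), beside 11.5% and 12.2% of all named genes, and the median change was -0.68 with a range of -1.82 to 0.15. Aldoc, a glycolytic aldolase, read 7.57 and 7.42 in Zfp322a RNAi cells, against 9.20 and 9.43 in control RNAi cells (limma adjusted p = 0.00105). Pdk1, a kinase that restrains the use of pyruvate in mitochondria, fell by 1.28 ± 0.12 (limma adjusted p = 0.00218). The hexokinases Hk1 and Hk2 fell by 1.20 ± 0.08 (limma adjusted p = 0.00108) and 0.97 ± 0.09 (limma adjusted p = 0.00194). Pfkl, a phosphofructokinase, fell by 1.01 ± 0.10 (limma adjusted p = 0.00266), and Tpi1, the triosephosphate isomerase, fell by 1.0 ± 0.08 (limma adjusted p = 0.00161). The 4 genes not called were the glucose transporters Slc2a1 (-0.17 ± 0.07) and Slc2a3 (0.08 ± 0.08) and the regulatory enzymes Pfkfb3 (-0.10 ± 0.10) and Pfkfb4 (0.15 ± 0.08). A HIF core was present in the promoter of 16 of 17 list genes with a RefSeq window (94.1%) and of 13 of the 14 called lower (92.9%), against 46.7% of all genes. Counted by window, 22 of 28 in the list held a core (78.6%), against 43.8% of all windows. The genes were listed as controlled by HIF-1, so these shares are no independent result. The core was also not particular to the genes called lower. The list was chosen with its direction in these arrays known.

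**Figure D5:**
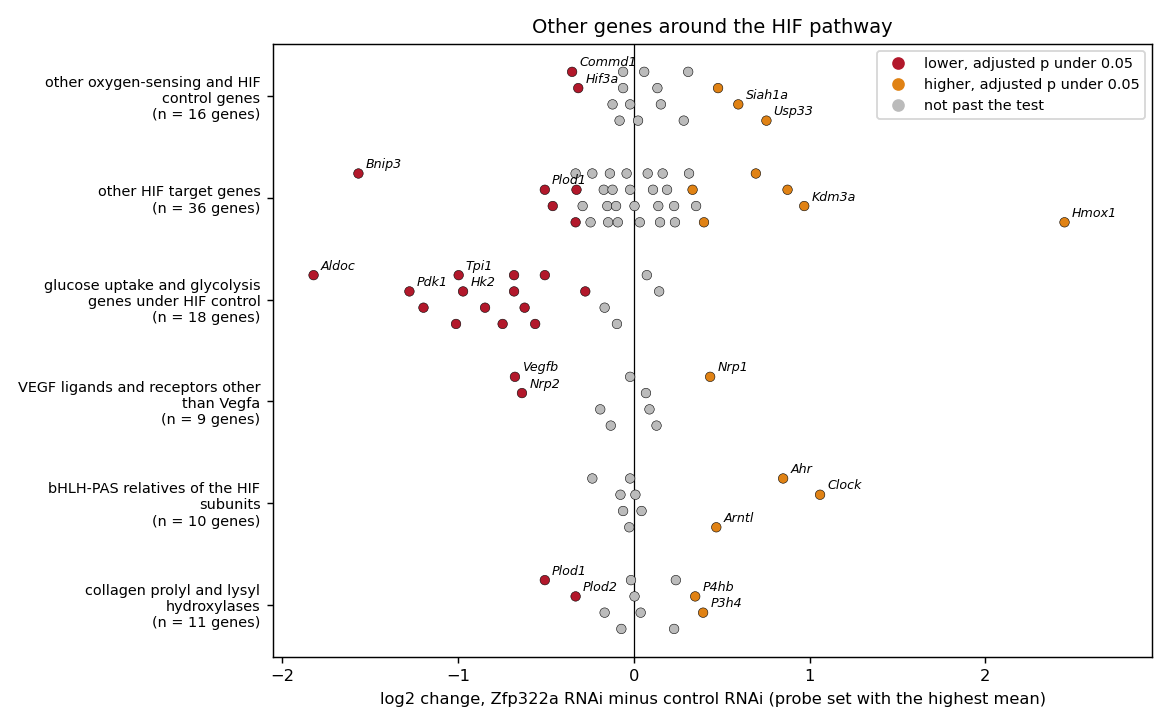
Log2 change, Zfp322a RNAi minus control RNAi, of the genes of 6 lists around the HIF pathway, each point a gene by its brightest probe set (vertical position within a list only separates points). Red points were called lower, orange points higher and grey points neither. The glycolysis genes lie mostly to the left, with 14 of 18 lower, while the other HIF targets spread to both sides, with Bnip3 at -1.57 and Hmox1 at 2.45.

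Of the 9 other VEGF ligands and receptors, 1 was called higher and 2 lower, beside 12.2% and 11.5% of all named genes (median change -0.02). Vegfb, a ligand of the receptor encoded by Flt1, fell by 0.68 ± 0.09 (limma adjusted p = 0.00540). The coreceptors moved apart, since Nrp2 fell by 0.64 ± 0.11 (limma adjusted p = 0.0103) and Nrp1 rose by 0.44 ± 0.12 (limma adjusted p = 0.0493). The main receptors Kdr and Flt1 were not called, with changes of 0.13 ± 0.09 and 0.07 ± 0.13.

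The genes whose pattern lay closest to that of Egln1 over the 4 arrays, by the Euclidean distance of control-centred log2 values, were Susd2 (distance 0.11, change -1.35), Tmem40 (distance 0.12, change -1.38) and Vwf (distance 0.14, change -1.41). With 4 arrays in 2 groups this likeness reflects little more than a change of the same size.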

How the data were processed

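Total RNA of 4 E14 cell samples was measured on Affymetrix MG430 2.0 mouse arrays, 1 array per sample. The authors processed them with RMA (version not given in the sources used here), and the deposited values are log2 levels per probe set, used as deposited. RMA makes the distributions of arrays alike, so a change shared by most genes would not appear. The number of arrays limits the precision (median SE 0.09). Groups and replicate numbers came from the sample titles. Of 45037 probe sets, 34945 had 1 gene symbol in the platform annotation, 932 had several and 9160 had none. Symbols were updated through Entrez IDs in the RefSeq table of GRCm38.p6 (34741 matched). No probe set was left out for low signal, and the table holds 0 control probe sets.

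Groups were compared with limma 3.58.1 (R 4.3.3) by eBayes on lmFit (2 residual degrees of freedom, two-sided), adjusted over all probe sets at a threshold of 0.05, and checked on simulated data. The members and lists were chosen with earlier results of these data known. Named were all member probe sets and, per list, up to 6 genes with the largest changes among those called without overlap between groups, while genes given as not called were named after their values were seen. Of the list genes, Rack1, Bnip3l, Loxl2, Epo, Gpi1, Gapdh, Eno1, Bmal2 and, of the markers, Hbb-b1 had no probe set of their own single symbol. Motifs were searched with Python 3.11.15 on both strands, each match counted. Alternatives were array centring, quantile normalization again, a variance trend, leaving out dim or cross-hybridizing probe sets, 1 probe set or the mean of all per gene, a replicate block, leaving out each array, and the study's own 1.5-fold rule.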

Additional observations from a re-analysis of the deposited data

How the results depend on the processing

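Array centring, repeated quantile normalization, a variance trend and leaving out dim or cross-hybridizing probe sets kept the counts of members at 2 or 3 higher and 6 lower. Fitting 1 probe set per gene called 3 members lower, and 2545 genes higher and 2618 lower of all. Averaging every probe set of a gene called 1 member higher and 3 lower, 2333 genes higher and 2519 lower of all, and 10 of the other HIF targets higher. For Hif1a this mean change was -0.05875, opposite in sign to that of its brightest probe set, 1427418_a_at (0.45). The 1.5-fold rule without a test passed 1 member probe set as higher and 4 as lower, those of Egln1 and Egln3. It passed 2104 higher and 1190 lower of all probe sets, and 4 of the other HIF targets as higher and 1 as lower. Leaving out any 1 array gave 0 calls in limma for each count (0 to 0), with 10572 to 11509 probe sets at an unadjusted p under 0.05, of which 6 to 10 were members. This fit has 1 array in a group, which is assumed to vary like the others.

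The replicate block in limma gave 0 calls higher and 0 lower for the members, all probe sets and the other HIF targets, with 13586 probe sets and 11 members at an unadjusted p under 0.05. The labels give replicates of the 2 groups no more than a common number. Deviations of replicate 1 from the group means correlated at 0.06 between groups across probe sets. That value cannot decide whether replicates were paired, since each group has only 2 arrays. A block on scan date was not run, as the table of values gives none.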

Other observations

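Among relatives of the HIF subunits in the bHLH-PAS family, 3 of 10 measured genes were higher in Zfp322a RNAi cells and 0 lower (1 lower at an unadjusted limma p under 0.05, median change -0.01), beside 12.2% and 11.5% of all named genes. Clock, a core activator of the circadian clock, read 9.11 and 8.99 in Zfp322a RNAi cells, against 8.02 and 7.96 in control RNAi cells (change 1.06 ± 0.08, limma adjusted p = 0.00154). Its partner Arntl rose by 0.47 ± 0.09 (limma adjusted p = 0.0189). Ahr, the aryl hydrocarbon receptor, which also dimerizes with the Arnt protein, rose by 0.85 ± 0.09 (limma adjusted p = 0.00274). The neural members Npas1, Npas3, Npas4, Sim1 and Sim2 were not called.

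The catalytic subunits of the collagen hydroxylases, like the PHD proteins, need oxygen and 2-oxoglutarate. Their list, which also holds the related genes P4hb and P3h4, had 2 of 11 genes higher and 2 lower, beside the same shares of all named genes (median change 0.01). P4hb, the shared beta subunit of the collagen prolyl hydroxylases, rose by 0.35 ± 0.08 (limma adjusted p = 0.0251), and P3h4 rose by 0.40 ± 0.09 (limma adjusted p = 0.0283). Plod2, a lysyl hydroxylase that is also counted among the HIF targets, fell by 0.33 ± 0.09 (limma adjusted p = 0.0488), as did Plod1. The largest of these 4 changes in size, that of Plod1 (-0.51), was smaller than that of any probe set of Egln1 or Egln3.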
